A study of Mus musculus with 4 samples.

Results

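This account follows the receptors for EGF and FGF2, the growth factors that keep neural stem and progenitor cells dividing in culture, together with genes that damp or report the MAP kinase signal below them. It covers 10 genes chosen by name: the receptors Egfr, Fgfr1, Fgfr2 and Fgfr3, the inhibitors Spry1, Spry2, Spry4 and Spred1, the phosphatase gene Dusp6 and the early response gene Ier3. A bead-array probe belonged to the set when the array annotation paired it with one of these symbols, which gave 21 of 45259 probes for 9 of the 10 genes. No probe is annotated to Spry1, so Spry1 was not measured here. Of these, 15 probes of 8 genes were detected, which asked for a detection p under 0.05 in no fewer than 2 arrays. The gene that had a probe but did not pass was Spry2.

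Cells of the mouse neocortex with stem and progenitor properties were profiled on Illumina bead arrays after being grown in suspension as neurospheres and harvested at day 5. The design sets cells overexpressing Bmi1, a polycomb subunit that sustains self-renewal, against transgenic control cells, with 2 biological replicates and 2 arrays per group. All cultures were C57BL/6, came from a conditional Cre/LoxP transgenic mouse and stood in EGF and FGF2 at 20 ng/ml each with 1% B-27. The driver of Cre, the age of the animals and any pooling of animals are not stated in the labels.

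EGF and FGF bind receptor tyrosine kinases that switch on RAS, RAF, MEK and ERK in turn. ERK activity then raises the RNA of its own brakes: Sprouty and Spred proteins act upstream of ERK, and the phosphatase encoded by Dusp6 removes the activating phosphates from ERK itself. In cortical cultures Egfr marks progenitors that divide in response to EGF, while Fgfr3 is known as a receptor of astrocytes and their precursors.

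The scanner table and the processed table disagree on which arrays belong to which group. Each array headed as a control in the scanner table matched a processed column filed under a Bmi1 sample (Spearman correlation across probes 1.00, at most 0.899 with any other column), and each array headed as Bmi1 matched a column filed under a control. Groups are named here by the scanner headers, and every direction below turns if the processed table is right. Because the Bmi1 arrays share 1 header, first and second stand for their order in the table, not for replicate numbers. The second Bmi1 array was the dimmest, with 16495 probes detected against 17742 to 18242 on the other arrays. Among the culture's markers, 8 of 10 stem cell and radial glia genes were tested. Nes, the filament gene of neural progenitors, gave signals of 519.2 to 708.2, and the stem cell factor Sox2 371.5 to 995.2. Of 8 neuron markers 5 were tested, and their list summed to 3923 and 3674 in the controls against 3147 and 1903. Map2 was the largest part, at 2186.5 and 2291 against 2229.8 and 1461. Tubb3, at -1.7 to 3.4, Stmn2 and Snap25 did not pass the detection filter. All 6 oligodendrocyte progenitor markers were tested, 3 higher and 3 lower, with sums of 18567 and 17703 against 18039 and 15465. Olig1 carried most of that, at 14016.2 and 13941.6 against 14464.3 and 13412.6. Summed signals of endothelial markers were at most 23.4 and of microglial markers at most 40.5. Those of 7 mesenchyme markers were 63.7 and 103.8 on the controls against 222.6 and 38. The 1 tested among the 7 was Acta2, at 49.8 and 95.3 against 212.5 and 27.2, while the fibroblast collagen Col1a1 gave -0.6 to 1.1. Control array 1 gave 970.5 for Xist, the RNA of the inactive X chromosome, against at most 0.9 elsewhere, and -1.8 for the Y-linked Eif2s3y against 204.6 to 239.6. Its part in the values below was not tested.

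The start regions of the members with the largest differences in either direction are shown so that the reader can see the DNA behind the names. Each is RefSeq's window of 300 bases on GRCm38.p6, from 250 bases before to 50 after the annotated start, read 5′ to 3′. The windows are chr17:35821463-35821762 on the plus strand for Ier3, chr10:99262981-99263280 plus for Dusp6, chr11:16751953-16752252 plus for Egfr and chr5:33721474-33721773 plus for Fgfr3, the upstream one of its 2 windows. Capitals mark matches, on either strand, to CCAAT or TATAA in Ier3, to CCAAT in Dusp6 and Fgfr3, and to the ETS core CCGGAA in Egfr.
Ier3: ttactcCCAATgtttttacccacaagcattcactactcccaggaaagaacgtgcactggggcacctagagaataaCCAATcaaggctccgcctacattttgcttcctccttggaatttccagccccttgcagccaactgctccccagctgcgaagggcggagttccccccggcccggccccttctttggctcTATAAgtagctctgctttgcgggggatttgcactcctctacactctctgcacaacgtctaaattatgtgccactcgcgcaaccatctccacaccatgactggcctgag
Dusp6: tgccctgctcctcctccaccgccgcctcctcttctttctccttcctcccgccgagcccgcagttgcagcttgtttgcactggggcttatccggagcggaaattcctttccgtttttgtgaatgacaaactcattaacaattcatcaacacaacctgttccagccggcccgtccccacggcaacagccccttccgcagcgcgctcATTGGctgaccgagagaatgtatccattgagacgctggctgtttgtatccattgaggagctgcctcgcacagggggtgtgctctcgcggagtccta
Egfr: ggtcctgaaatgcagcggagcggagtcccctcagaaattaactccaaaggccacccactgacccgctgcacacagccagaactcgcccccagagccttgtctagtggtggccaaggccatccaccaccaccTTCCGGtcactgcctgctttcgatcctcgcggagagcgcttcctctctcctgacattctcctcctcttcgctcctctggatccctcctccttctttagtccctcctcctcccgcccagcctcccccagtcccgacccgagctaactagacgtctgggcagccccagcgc
Fgfr3: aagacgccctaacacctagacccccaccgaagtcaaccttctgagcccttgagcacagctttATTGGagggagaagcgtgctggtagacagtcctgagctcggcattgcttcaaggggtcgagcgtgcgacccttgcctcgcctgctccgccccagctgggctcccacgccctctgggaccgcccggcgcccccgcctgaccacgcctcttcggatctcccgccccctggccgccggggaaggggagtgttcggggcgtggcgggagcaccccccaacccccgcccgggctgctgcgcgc

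Windows of 8 of the 10 genes were searched for 9 motifs, and none was used for Fgfr1 and Spry4. The ETS core, which ETS factors activated by ERK can bind, stood in the windows of Egfr and Spry2, and 14.9% of the 32851 windows in the table hold it. No window of the members held the longer ETS sequence CCGGAAGT (3.89% of all windows) or the cyclic AMP element TGACGTCA (1.79%). The AP-1 sequence TGANTCA (7.81%) and the E2F sequence TTTCGCGC (0.323%) were also absent from them. So was the single fixed sequence searched for as the serum response element (0.0639%). Other forms of the serum response element were not searched for, so their absence is not shown. CACGTG stood in the window of Fgfr2 (7.15% of all). CCAAT stood in the windows of Fgfr3, Spry1, Dusp6 and Ier3 (37.4% of all) and TATAA in that of Ier3 (24.9% of all). These last 2 motifs were added after the sequences had been seen. A match describes letters only, and the arrays measured no binding.

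Across the set, Ier3 stood higher in the arrays labelled Bmi1, and the other genes had groups that overlapped. The differences are in log2 units of normalised signal, labelled Bmi1 minus labelled control, from limma fitted over 12809 features, where a gene is represented by its brightest detected probe. None of the 8 tested genes passed at an adjusted p of 0.05, with adjusted p from 0.134 to 0.996, and 0% of all features passed. At an unadjusted p under 0.05 there was 1 gene of 8, beside 22.0% of all features, and it was higher, beside 12.2% of features higher and 9.76% lower. The groups did not overlap for 1 gene of 8, beside 54.8% of all features (28.6% higher and 26.2% lower). The median difference of the 8 genes was 0.05, against 0.01 over all features. Of the 8 genes, 5 were higher and 3 lower.

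**Figure D1:**
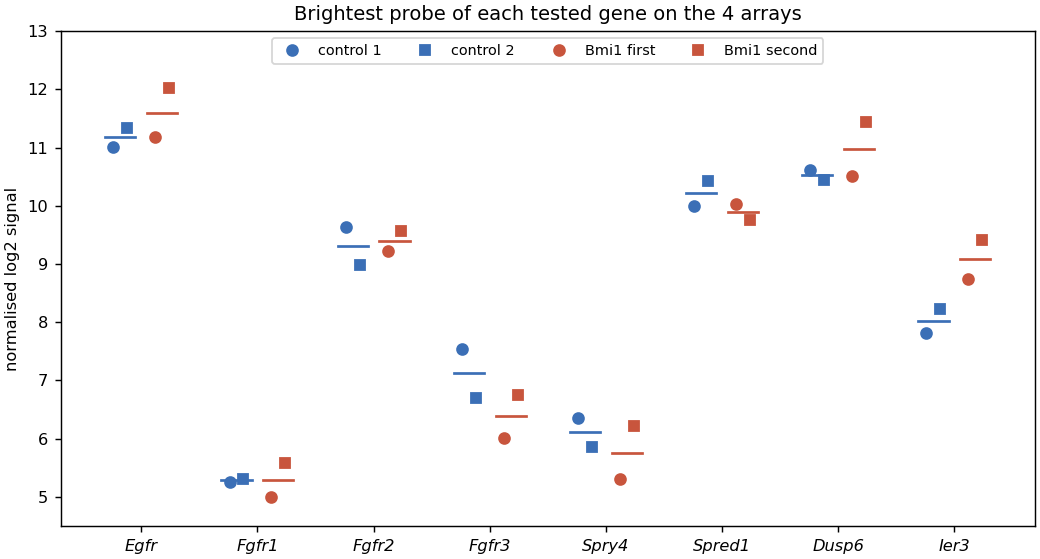
Normalised log2 signal (vertical axis) of the brightest probe of each of the 8 tested genes on the 4 arrays, with blue for arrays labelled control, red for arrays labelled Bmi1 and bars for group means. Ier3 is the gene whose red points both lie above both blue points.

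Egfr, the receptor for EGF, overlapped between groups by its brightest probe. That probe had log2 values of 11.01 and 11.34 in the controls, 11.18 in the first Bmi1 array and 12.02 in the second. The second Bmi1 array was the high one, and the first lay between the controls. The group means were 11.18 ± 0.24 and 11.60 ± 0.60 (SD, n = 2 each), a difference of 0.42 (95% confidence interval -0.30 to 1.14, limma adjusted p = 0.457). Without the second Bmi1 array the difference was -0.0013. In bulk RNA of this kind, a change in the share of expressing cells and one in RNA per cell cannot be told apart.

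Egfr is the best covered gene of the set, with 6 probes, 5 of them detected, and its probes did not all do the same. The array annotation places 2 of the detected probes on transcript NM_207655 and 2 on NM_007912. Mouse Egfr is known to make, besides the full receptor, a shorter RNA for a receptor without the kinase part. The tables used here do not tell which of the 2 accessions stands for which.

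The brighter NM_207655 probe read 9.91 and 9.87 on the controls and 10.19 and 10.96 on the arrays labelled Bmi1, so both groups stood apart. Its difference was 0.68 (SE 0.28, limma adjusted p = 0.227 over all detected probes), and it was 0.30 without the second Bmi1 array and 1.06 without the first. The dimmer NM_207655 probe, near the floor at 5.14, 4.72, 4.66 and 5.45 in the same order of arrays, overlapped (0.13). Of the NM_007912 probes, the brighter read 7.62, 7.86, 7.69 and 7.76, a difference of -0.02, and the dimmer 7.03, 7.04, 7.07 and 7.28, a difference of 0.14 with groups that stood apart. Before normalisation both NM_007912 probes were lower on both arrays labelled Bmi1. The brighter gave signals of 199.8 and 248.2 against 184.7 and 158.3, and the dimmer 126.4 and 135.5 against 115.2 and 108. Median scaling over all probes gave -0.35 and -0.20, beside a median of -0.20 over all features. The sixth probe, from a cDNA clone, gave -2.7 to 4.4 signal units and was not detected.

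Taking the mean of the NM_207655 probes less the mean of the NM_007912 probes on each array gives 0.20 and -0.16 on the controls and 0.04 and 0.68 on the arrays labelled Bmi1. The second Bmi1 array again stood apart and the other values overlapped. The difference between groups was 0.34, smaller than the SD of 0.45 within the Bmi1 pair, with an exact two-sided permutation p of 0.667, where 2 arrays against 2 cannot go below 0.333. This contrast between the probe pairs was chosen after the values had been seen, and with so few arrays the test could not decide on it.

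**Figure D2:**
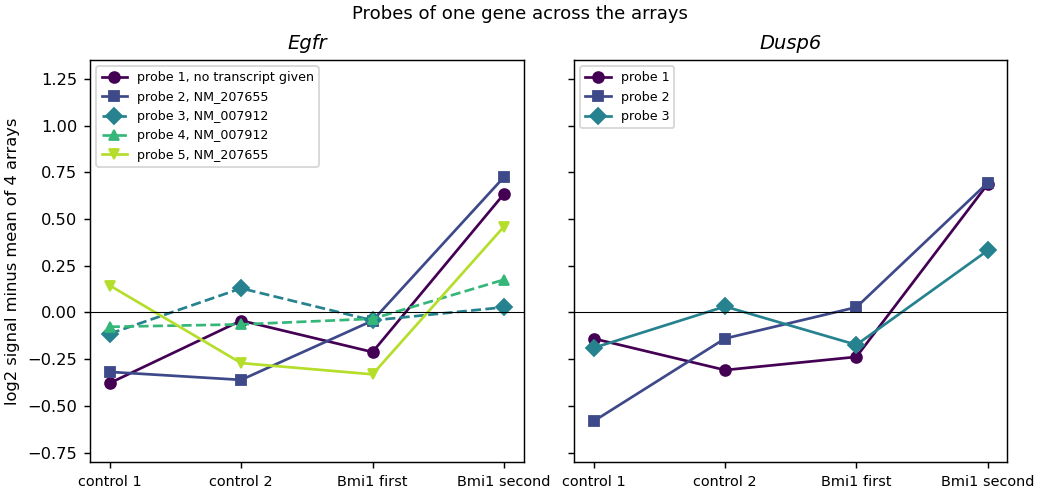
Log2 signal of each detected probe minus its own mean over the 4 arrays (vertical axis), for Egfr (left, dashed lines for NM_007912 probes) and Dusp6 (right), with lines joining the points of a probe. On the second Bmi1 array the NM_207655 probes and the probe with no transcript given lie well above their mean, and both NM_007912 probes lie closer to theirs.

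None of the FGF receptors passed the test. Fgfr2, a receptor of neural progenitors, was at 9.64 and 8.98 on the controls and 9.23 and 9.57 on the arrays labelled Bmi1 by its brightest probe. Both Bmi1 values lay between the controls. The difference was 0.09 (95% confidence interval -0.55 to 0.73, limma adjusted p = 0.878). Its other detected probe, near the floor at 5.02, 4.85, 4.58 and 4.70, went the other way by -0.30, with groups that stood apart. The mean of the 2 probes gave -0.10. Its remaining 2 probes were detected on 1 array and on 0 arrays.

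Fgfr1, the main FGF receptor of early neural precursors, was detected by 1 of its 2 probes and only weakly. Its signals were 23.7 and 27.9 on the controls and 15.3 and 24.6 on the arrays labelled Bmi1. After normalisation the log2 values were 5.25, 5.31, 4.99 and 5.58, a difference of 0.0029 (95% confidence interval -0.57 to 0.58, limma adjusted p = 0.996). The interval leaves room for changes in either direction of a size like that seen for Egfr. Signals of different probes are not on one scale, so the weak probe does not order Fgfr1 below its relatives.

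Fgfr3 had the largest negative difference of the set. Its brightest probe gave 189 and 103.5 signal units on the controls and 47 and 69.8 on the arrays labelled Bmi1, with control array 1 the highest. On the normalised log2 scale these became 7.55, 6.70, 6.02 and 6.75, so control array 2 and the second Bmi1 array changed places and the groups overlapped. The means were 7.12 ± 0.60 and 6.38 ± 0.52 (SD, n = 2 each), a difference of -0.74 (95% confidence interval -1.56 to 0.08, limma adjusted p = 0.264). The difference was -0.32 without control array 1 and -1.17 without control array 2, and -0.38 and -1.11 without the first and the second Bmi1 array. The second Fgfr3 probe was detected on control array 1 alone, at 14.4 against 3.0 to 5.2 elsewhere.

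Astrocyte markers had differences of the same sign as Fgfr3. All 7 tested of 8 were lower in the arrays labelled Bmi1, 5 of them at an unadjusted p under 0.05, beside 9.76% of all features, and their summed signals were 17056 and 17594 on the controls against 10084 and 8547. Gfap, the astrocyte filament gene, gave 874.7 and 1618.8 against 328.1 and 49.2. Within each group the order of arrays was not that of Fgfr3 throughout. By signal, the astrocyte sum and Gfap were higher on the array where Fgfr3 was lower, in both groups. The astrocyte markers Slc1a2 and Gja1 had the order of Fgfr3 in both groups. Oligodendrocyte markers summed to 5601 and 1947 in the controls against 1218 and 367. Of the 5 tested neuron markers 4 were lower, 2 of them at an unadjusted p under 0.05. The part of these cell types in the Fgfr3 values was not tested.

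Of the 4 Sprouty and Spred genes, Spry4 and Spred1 were tested and neither passed. Spry4, an inhibitor induced by FGF signalling, was at 6.36 and 5.85 on the controls and 5.30 and 6.21 on the arrays labelled Bmi1. The first Bmi1 array was the low one, and the second lay between the controls. The difference was -0.35 (95% confidence interval -1.14 to 0.43, limma adjusted p = 0.577), and 0.11 without the first Bmi1 array. Spred1, which recruits neurofibromin to shut off RAS, gave signals of 1070.6 and 1481.6 on the controls against 1011.6 and 722.5. The first Bmi1 array lay just below control array 1, and after normalisation just above it, so the groups overlapped. Its difference was -0.32 (95% confidence interval -0.86 to 0.22, limma adjusted p = 0.455), and its sign stayed negative with each array left out, from -0.53 to -0.11. Spry2 gave -7.9 to 0.9 signal units and was detected on 0 of the 4 arrays, which sets no level for a gene measured by 1 probe.

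Dusp6, the ERK phosphatase commonly read as a gauge of ERK activity, was highest on the second Bmi1 array. Its brightest probe stood at 10.61 and 10.44 on the controls and 10.51 and 11.44 on the arrays labelled Bmi1. The first Bmi1 array thus lay between the controls and the second above all others, as for Egfr. The controls stood in the opposite order to that for Egfr. The difference was 0.45 (95% confidence interval -0.28 to 1.18, limma adjusted p = 0.437), and -0.01 without the second Bmi1 array. A dimmer probe had groups that stood apart, at 5.39 and 5.83 against 6.00 and 6.67, a difference of 0.72 (SE 0.28, limma adjusted p = 0.215 over all detected probes), and it was 0.39 without the second Bmi1 array. The third, at 4.76, 4.99, 4.78 and 5.29, overlapped (0.16).

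Ier3, an early response gene whose product is known to prolong ERK signalling and cell survival, had the largest difference of the set. Its only probe gave signals of 231.1 and 321.7 on the controls and 399.1 and 562.9 on the arrays labelled Bmi1. Both groups stood apart on this scale and after normalisation, at 7.82 and 8.23 against 8.74 and 9.42. The means were 8.03 ± 0.29 and 9.08 ± 0.48 (SD, n = 2 each), a difference of 1.05, or 2.08-fold (95% confidence interval 0.39 to 1.72 in log2, unadjusted p = 0.0069, limma adjusted p = 0.134). A share of 5.1% of all features had a smaller unadjusted p. With each array left out the difference stayed between 0.71 and 1.39. Over 15 alternative settings its limma adjusted p ran from 0.0728 to 0.591, so it passed in none of them.

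**Figure D3:**
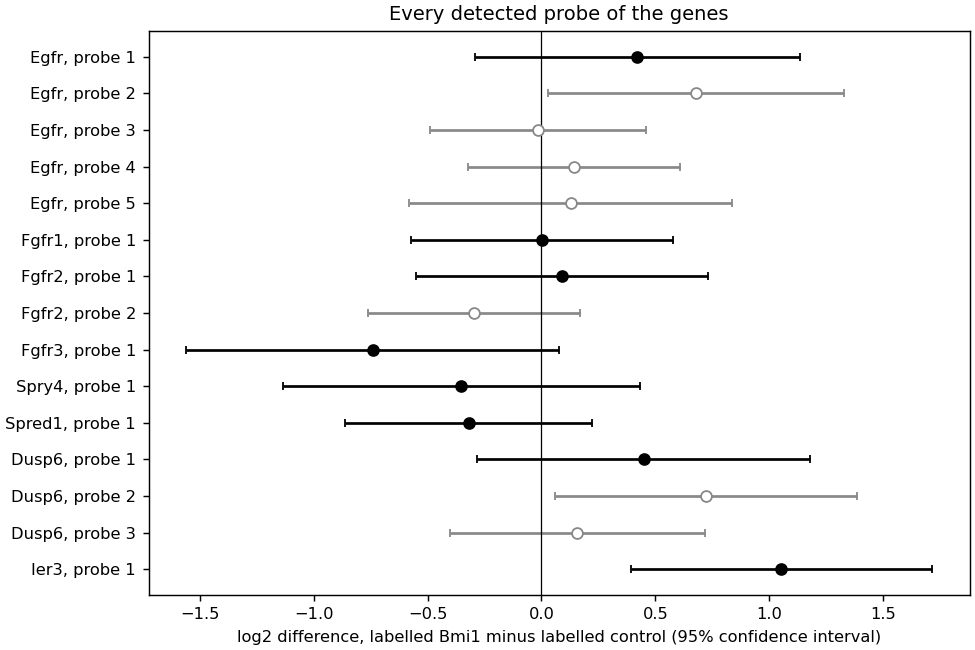
Log2 difference, labelled Bmi1 minus labelled control, of each of the 15 detected probes with its 95% confidence interval from the limma fit over all detected probes. Filled points are the brightest probe of a gene, and the intervals of Ier3, of Egfr probe 2 and of Dusp6 probe 2 are those that leave out 0.

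Over the 15 detected probes, 10 differences were positive and 5 negative. The groups stood apart for 5 probes, beside 53.6% of all detected probes (26.3% higher and 27.3% lower), and 3 had an unadjusted p under 0.05, beside 20.8%. None passed the adjusted test with limma.

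The second Bmi1 array was the highest of the 4 arrays for 4 of the 8 genes, beside 34.0% of all features highest there and 33.5% lowest. The wider pathway described below had 31 of 65 tested genes highest there, so this was not particular to the set. By probe it was 9 of 15, a count in which Egfr and Dusp6 enter several times. Relative to each gene's own mean, the median of the 8 genes was -0.04 and -0.07 on the controls, -0.22 for the first Bmi1 array and 0.29 for the second. The Bmi1 arrays thus lay on either side of both controls. Leaving out the second Bmi1 array turned the sign of Egfr, Fgfr1, Fgfr2 and Dusp6. Fgfr3, Spred1 and Ier3 kept their sign whichever array was left out, and the other 5 genes did not. The summed signal of mitotic markers was 2013 and 3917 in the controls against 4001 and 5410. Plk1, a mitotic kinase gene, carried much of it, at 316.7 and 569.8 against 1063.3 and 1923.3. Cdk1, the kinase of mitotic entry, gave 664.8 and 1286.3 against 955.6 and 1174.5, so its groups overlapped. Of 6 tested markers all 6 differences were positive, 2 of them at an unadjusted p under 0.05, beside 12.2% of all features. Their part in these values was not tested.

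**Figure D4:**
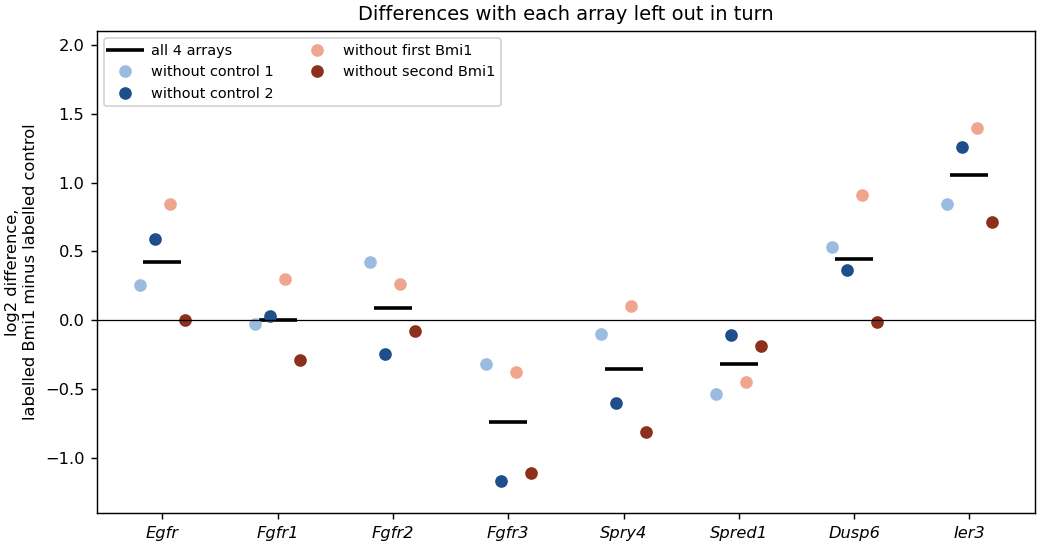
Log2 difference, labelled Bmi1 minus labelled control, of the 8 tested genes with all 4 arrays (black bars) and with each array left out in turn (coloured points). Fgfr3 and Spred1 stay below 0 and Ier3 above 0 in each case, while the points of Egfr and Dusp6 without the second Bmi1 array lie at about 0.

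For each gene the closest profile over the 4 arrays was sought among the 72 other tested genes of the set and its pathway, by the root mean square difference of mean-centred log2 values. Dusp6 lay closest to Sos2, an activator of RAS (0.07), and next to Dusp4, another MAP kinase phosphatase (0.08). Egfr lay closest to the adaptor Shc1 (0.12) and next to Dusp4 (0.15). Ier3 lay closest to Il17rd, an inhibitor of FGF signalling also called Sef (0.10), and Spred1 to Pebp1, which binds RAF (0.05). Spry4 lay closest to Phlda1 (0.13) and Fgfr3 to Spry4 (0.24). Fgfr1 lay closest to the ERK-activated kinase Rps6ka3 (0.03) and Fgfr2 to the EGF receptor inhibitor Errfi1 (0.11). Among all 12809 features, from 2 (for Fgfr1) to 123 (for Fgfr2) lay nearer still.

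The rest of the pathway was followed in 8 lists by role, holding 116 genes, of which 65 were tested. None passed the adjusted test with limma. At an unadjusted p under 0.05, 8 had positive and 4 negative differences, which is 18.5% of the 65 beside 22.0% of all features. The median difference was 0.05. The signals of many ligands were at the floor: 3 of 11 EGF family and 7 of 22 FGF family genes were tested. Nrg1, a ligand of ErbB receptors, read 5.43 and 4.82 against 5.90 and 5.84 (0.75, SE 0.25, limma adjusted p = 0.163), with a difference of 0.44 without control array 2. Fgf22, an FGF known from synapse formation, read 5.30 and 4.87 against 5.94 and 6.18 (0.97, SE 0.23, adjusted p = 0.133). Both lay near the floor.

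Among the 5 other receptors 2 were tested, Erbb2 and the FGF receptor without a kinase, Fgfrl1, whose difference was 0.05 (SE 0.22, limma adjusted p = 0.913). Co-receptors went both ways. Of 11 tested, 6 were higher and 5 lower. At an unadjusted p under 0.05 these were 2 and 1, beside 12.2% and 9.76% of all features. Gpc1, a heparan sulphate proteoglycan that binds FGF2, read 11.42 and 11.22 against 11.76 and 12.17 (0.65, SE 0.22). Flrt3, a membrane protein that associates with FGF receptors, read 8.21 and 8.38 against 8.81 and 9.15 (0.69, SE 0.21). Sdc3, a syndecan of the nervous system, read 11.08 and 11.26 against 10.77 and 10.45 (-0.56, SE 0.21). Their limma adjusted p ran from 0.153 for Flrt3 to 0.193 for Sdc3.

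Inside the cell, 6 of 9 adaptors and 4 of 5 tested genes of the RAS-ERK cascade were higher. The median difference of all features was 0.01. Map2k2, which encodes the ERK kinase MEK2, read 10.23 and 10.48 against 11.14 and 11.29 (0.86, SE 0.20, limma adjusted p = 0.133), while a dimmer probe of it stood at -0.30. The mean of both probes gave 0.28 (unadjusted p = 0.16). Grb2, the adaptor that couples receptors to RAS, read 4.64 and 4.78 against 5.13 and 5.21 (0.46, SE 0.19, adjusted p = 0.223), close to the floor.

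The other negative regulators split evenly, 8 higher and 7 lower of 15. Nf1, which encodes neurofibromin, the RAS-inactivating partner of Spred1, read 6.07 and 6.49 against 5.35 and 4.43 (-1.39, SE 0.33, limma adjusted p = 0.133). On the second Bmi1 array its signal was 3.9, against 24 on the first and 56 and 87 on the controls. Its dimmer probe stood at -0.45, and the mean of both at -0.92. Il17rd read 4.69 and 5.05 against 5.42 and 6.06 (0.87, SE 0.27, adjusted p = 0.153), with its other probe at 0.50. Its difference was 0.55 without the second Bmi1 array.

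Of 13 tested genes of ERK-responsive transcription, 8 were higher and 5 lower. Ets1 read 8.88 and 8.89 against 9.25 and 9.75 (0.61, SE 0.23, limma adjusted p = 0.191), and its difference was 0.36 without the second Bmi1 array. Etv4, an ETS factor induced by FGF, went the other way, at 8.49 and 9.04 against 8.25 and 7.92 (-0.68, SE 0.25, adjusted p = 0.191), and at -0.40 without control array 2. Myc read 5.75 and 5.58 against 5.18 and 5.16 (-0.50, SE 0.19, adjusted p = 0.202).

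Egr1, Dusp4 and Dusp7 stood highest on the second Bmi1 array, like Egfr and Dusp6. They were chosen after their values were seen, so this likeness is no separate evidence. Before normalisation, other genes of the same lists had their lowest signal on the second Bmi1 array, which was also the dimmest. Dusp5 gave 30.7 and 41.3 on the controls against 21.1 and 16.8, and Junb 24.7 and 25 against 11.9 and 11. Egr1, an immediate early factor, read 11.50 and 10.59 on the controls and 11.34 and 12.36 on the arrays labelled Bmi1. Dusp7 read 8.95 and 8.59 against 8.95 and 9.92, and Dusp4 5.59 and 5.51 against 5.57 and 6.32. Their differences of 0.80, 0.67 and 0.40 were 0.29, 0.18 and 0.02 without that array, and none passed (limma adjusted p of 0.297, 0.286 and 0.434).

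**Figure D5:**
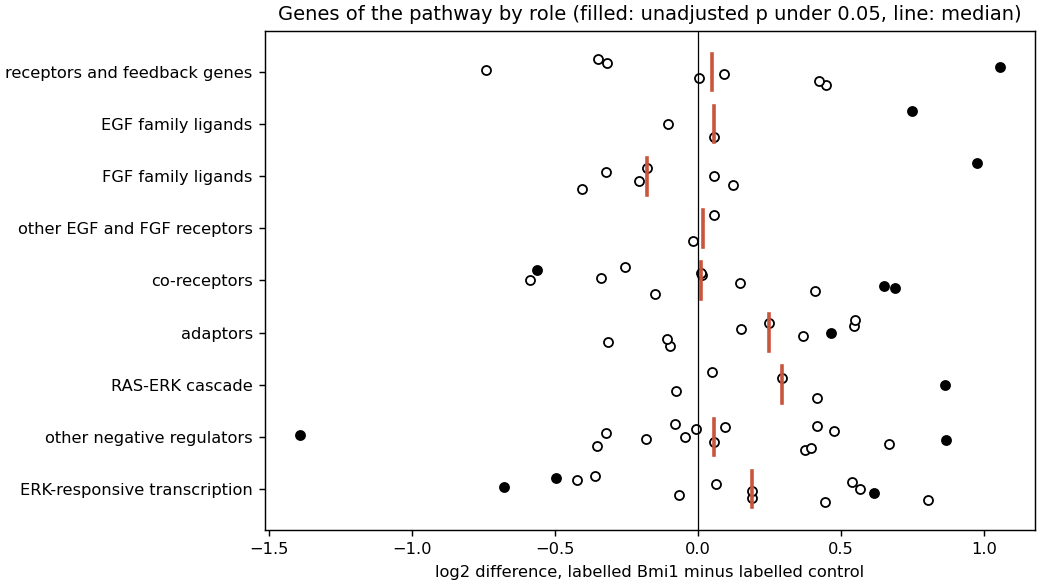
Log2 difference, labelled Bmi1 minus labelled control (horizontal axis), of the 8 tested receptors and feedback genes (top) and the 65 tested genes of the pathway by role, with 1 point per gene, filled at an unadjusted p under 0.05, and a red line at each median. Filled points lie on both sides of 0, with Ier3 and Fgf22 at the right and Nf1 at the left.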

How the data were processed

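Bead-array signals of 4 cultures, 2 per group, were analysed. The authors deposited a table of signal intensity per probe and array, already background-subtracted since 31.2 to 33.9% of values lay at or below 0, and a detection column that rose with the signal, so the deposited p-value was taken as 1 minus it. The authors also deposited a processed table of log2 values with equal quantiles. The submitters' processing notes name lumi, with no version, and the exact transform is unknown. Rows without a probe identifier (22) were left out, and probes were named from the array annotation with symbols updated through the gene identifier.

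Signals were normalised by neqc (limma 3.58.1, R 4.3.3) (normexp background from detection p, offset of 16, log2, quantile normalisation). Probes with detection p under 0.05 on at least 2 arrays were kept (18237), and the brightest per gene gave 12809 features. Groups were compared with lmFit and eBayes, two-sided, with Benjamini-Hochberg adjustment. Other probes of a gene come from the same fit over all 18237 probes.

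The set, the lists and the rule for naming genes were chosen with earlier results of these data known. The rule names all 10 genes, in each pathway list up to 4 genes of smallest unadjusted p under 0.05 (or the 1 of smallest p), and the closest profile of each gene. Alternatives varied the background, scaling, offset, filter, probe choice, table and array left out. With 2 arrays per group their number limits precision, and no batch label was given.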

Additional observations from a re-analysis of the deposited data

How the results depend on the processing

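With the authors' processed table under its own column names, all 30 named differences changed sign: -0.42 for Egfr, -0.0083 for Fgfr1, -0.086 for Fgfr2, 0.57 for Fgfr3, 0.22 for Spry4, 0.31 for Spred1, -0.45 for Dusp6, -0.97 for Ier3, -0.43 for Nrg1, -0.58 for Fgf22, -0.048 for Fgfrl1, -0.63 for Flrt3, -0.64 for Gpc1, 0.56 for Sdc3, -0.23 for Grb2, -0.85 for Map2k2, 0.83 for Nf1, -0.48 for Il17rd, -0.58 for Ets1, 0.62 for Etv4, 0.28 for Myc, -0.51 for Shc1, -0.041 for Rps6ka3, -0.047 for Errfi1, 0.33 for Phlda1, 0.29 for Pebp1, -0.40 for Sos2, -0.795 for Egr1, -0.26 for Dusp4 and -0.63 for Dusp7. The table's construction explains this, since its columns carry the opposite group names. With the replicate number as a block these values were the same, because each block holds 1 array of each group, and 2535 features had an unadjusted p under 0.05 against 2840 without the block. Same-numbered samples deviated in opposite ways (correlation -0.20), and crossed pairing, added after the data were seen, gave 3199. With 2 arrays per group the crossed correlation is by construction the same with the sign turned (0.20). Crossed pairing was added with that sign known, so its count does not show how the samples were paired. None of these fits had a feature past the adjusted threshold.

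Median scaling over all probes shifted the median of all features to -0.20 and left 16.9% of unadjusted calls higher, against 55.6%. Median scaling over probes detected on all 4 arrays, added after the data were seen, shifted it to 0.16 with 72.1% higher. Under the first, Fgfr1 was -0.23, Fgfr2 -0.16, Fgfrl1 -0.28, Rps6ka3 -0.27 and Errfi1 -0.28, near that shift. There, 2 genes of the set had an unadjusted p under 0.05 and 4 had groups that stood apart, beside 23.3% and 58.7% of all features. The 2 genes were Ier3, at 0.76 (limma adjusted p = 0.170), and Fgfr3, at -1.09 (limma adjusted p = 0.142) against -0.74 with quantile normalisation. With the mean of a gene's probes, Fgfr2 was -0.10 and 2 genes stood apart, beside 53.1% of all features.

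Leaving out 1 array at a time, the count of features at an unadjusted p under 0.05 ran from 1067 (without control array 1) to 3533 (without the first Bmi1 array), against 2817, with 1923 when control array 2 was dropped and 1428 when the second Bmi1 array was. Features past the adjusted threshold numbered 5 without control array 2, 1 without the first Bmi1 array and 0 otherwise. The set then had 1 to 3 genes at an unadjusted p under 0.05 and 4 to 5 that stood apart, beside 8.33 to 27.6% and 74.7 to 82.5% of all features. The range was -0.0013 to 0.84 for Egfr, -0.29 to 0.30 for Fgfr1 (-0.029 and 0.034 without control array 1 and 2), -0.24 to 0.42 for Fgfr2 (-0.082 without the second Bmi1 array), -0.81 to 0.11 for Spry4, -0.014 to 0.91 for Dusp6, -0.11 to 0.22 for Fgfrl1 (0.19 without control array 2), -0.23 to 0.33 for Rps6ka3, -0.17 to 0.28 for Errfi1 (-0.0082 without the second Bmi1 array) and -0.74 to 0.022 for Phlda1. The cause was not tested. No other named gene changed sign under scanner names. An offset of 50 in place of 16 brought probes near the floor closer to 0, with 0.42 for Nrg1, 0.57 for Fgf22, 0.22 for Grb2, 0.47 for Il17rd, -0.80 for Nf1 and -0.28 for Myc. The mean of its probes gave 0.27 for Egfr.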
